A study of Xenopus laevis with 12 samples.

Results

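The 6 libraries described here came from wild-type Xenopus laevis embryos exposed to 90 µM thioridazine, a phenothiazine antipsychotic. The question was whether they form a series from a weaker to a stronger response. They were chosen from 12 libraries of the series by treatment and ranked by a score, which is the mean over fads1.S, fads2.S and gfpt1.S of a library's log2 CPM minus the mean of the untreated controls raised at the same cohort size. CPM is the number of counts of a gene for each 1e6 counts of the library after scaling. The groups were thioridazine small (cohorts of 100 embryos, n = 3), thioridazine large (cohorts of 300, n = 3) and the untreated control small and control large groups (n = 3 each). Every library held RNA of 15 pooled whole tadpoles collected at stage 35, so that variation between single animals is not seen. The labels let exposure run to the stage of collection and also name an earlier stage, and the study's methods end it before collection, so the window is unsettled. The study's methods describe embryos of a shared clutch, or mixed from several mothers, that were split among treatments and group sizes. The labels do not tie a sequenced pool to a clutch or week, so the p-values reflect only how far these pools differ, in part perhaps for technical reasons. Library totals lay between 4887343 and 7497662 expected counts. Of the genes, 25553 passed the low-count filter and were tested, and 25550 were ranked once the 3 score genes were set aside. In this allotetraploid frog the suffixes .L and .S mark the copies (homeologs) on the long and short subgenomes, and reads matching both are divided by estimation.

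The score genes belong to a pair of metabolic pathways. FADS1 and FADS2 are desaturases that insert double bonds into polyunsaturated fatty acids and whose transcription is driven by the sterol regulatory element binding proteins (SREBPs), the membrane-bound factors that sense sterols and lipids. GFPT1 catalyses the first, rate-limiting step of the hexosamine pathway, which makes the sugar nucleotide used for protein glycosylation, and its gene is a target of the unfolded protein response and of ATF4 in mammals. Cationic amphiphilic drugs such as phenothiazines are known in mammalian cells to accumulate in lysosomes, to hold back cholesterol there and to raise SREBP targets.

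All 3 score genes were several times higher in each thioridazine library than in any control, and the 6 libraries lay close together. In thioridazine small replicates 1, 2 and 3 the score was 2.23, 2.48 and 2.45 on the log2 scale (mean 2.39 ± 0.14 SD). In thioridazine large replicates 1, 2 and 3 it was 1.98, 1.84 and 2.28 (2.04 ± 0.22 SD). Library by library, fads1.S was at 58.5, 69.8 and 75.9 CPM in the small and 53.5, 51.7 and 71.0 CPM in the large cohorts, against 12.36 to 16.9 CPM over the 6 controls. The corresponding levels of fads2.S were 21.5, 27.4 and 30.3 CPM in the small and 25.7, 18.5 and 26.9 CPM in the large cohorts, against 3.86 to 6.99 CPM in controls. The most abundant of them, gfpt1.S, was at 585, 643 and 511 CPM in the small and 421, 456 and 567 CPM in the large cohorts, against 104 to 118 CPM. Thioridazine and control libraries did not overlap for any score gene, a difference that the choice of these genes fixes and that is therefore not tested. The lowest score, in thioridazine large replicate 2, corresponded to changes of 1.79 for fads1.S, 1.73 for fads2.S and 2.01 for gfpt1.S, and the highest, in thioridazine small replicate 2, to 2.23, 2.69 and 2.51.

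**Figure D1:**
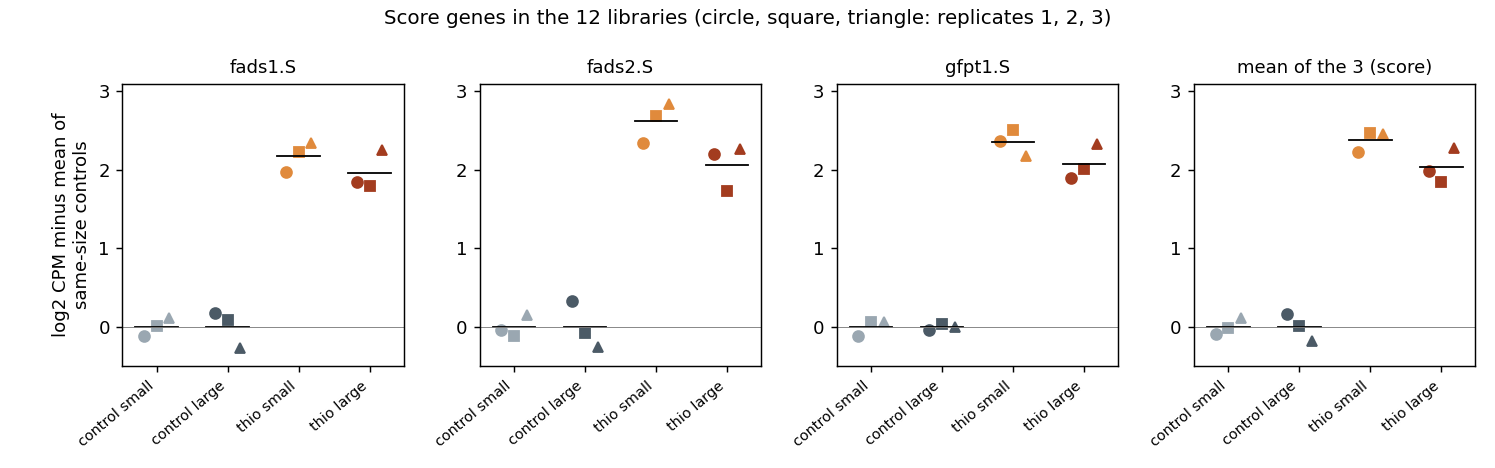
Log2 CPM minus the mean of the same-size controls for fads1.S, fads2.S, gfpt1.S and their mean (the score) in each library, with black lines at group means (n = 3). The thioridazine libraries span 1.84 to 2.48 on the score and the controls -0.17 to 0.16.

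How far the 6 libraries are graded was read against the controls, scored the same way. Once centred within cohort size, the thioridazine scores had a pooled SD of 0.18 and the control scores one of 0.14, a ratio of 1.34. By gene, the thioridazine and control SDs were 0.22 and 0.18 for fads1.S and 0.27 and 0.24 for fads2.S. They lay farther apart for gfpt1.S, at 0.20 and 0.08. These SDs are not alike in counting error. fads2.S had 24.7 to 52.5 expected counts in controls and 112 to 228 in thioridazine libraries. For fads1.S the counts were 66.7 to 127 and 306 to 571. Counting error is therefore larger in the controls, and the ratio may understate the grading. Its share of the spread was not tested. The whole range of the score over the 6 thioridazine libraries was 0.63. The score genes also ordered the libraries differently. The centred values of fads1.S and fads2.S had r = 0.80 over the 6 libraries, those of fads1.S and gfpt1.S r = 0.44, and those of fads2.S and gfpt1.S r = 0.07 (descriptions). Among the small cohorts fads1.S and fads2.S were highest in replicate 3, where gfpt1.S was lowest. Other copies of these genes gave a weaker order. The homeolog fads1.L had 3.54, 6.49 and 9.70 CPM in the small and 7.22, 6.53 and 5.97 CPM in the large cohorts, with r = 0.35 with the score. For fads2.L the levels were 20.1, 37.8 and 45.6 CPM in the small and 32.9, 30.7 and 30.8 CPM in the large cohorts and r was 0.48. Both were lowest in thioridazine small replicate 1, at 3.54 and 20.1 CPM, both among the controls (1.36 to 3.77 CPM for fads1.L and 18.4 to 23.8 CPM for fads2.L). The mean difference from control was 1.57 for fads1.L and 0.59 for fads2.L on the log2 scale. Limma with 2 surrogate variables estimated larger rises, 2.29 ± 0.37 (adjusted p = 0.0134) and 1.16 ± 0.18 (adjusted p = 0.0118). With no surrogate variable limma gave 1.64 (adjusted p = 0.00237) and 0.60 (adjusted p = 0.0244). The homeolog gfpt1.L was below the filter.

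To find what varies with the score, each gene's log2 CPM was centred within cohort size and correlated with the centred score over the 6 libraries. A gene was said to track the score at r of at least 0.9 in size with a slope of at least 0.5 log2 units per log2 unit of score. By this definition 385 genes were higher with the score, 1.51% of the genes ranked, and 455 were lower, 1.78%. Without the limit on the slope 981 genes (3.84%) reached 0.9 in size. In the 6 control libraries, ranked by the same score computed in them, 1045 genes (4.09%) did so. With the limit on the slope, 453 genes (1.77%) were higher and 492 (1.93%) lower with the score among the controls. The thioridazine libraries thus held no larger share of genes following the score than untreated libraries did. When each library was left out in turn, 351 of the 840 tracking genes (41.8%) kept r of 0.9 in size every time, and 395 of 945 (41.8%) did in the controls. With the score taken from 1 gene, 412 of the 840 also reached r of 0.9 in size with fads1.S alone, 179 with fads2.S alone and 0 with gfpt1.S alone. The 0 is fixed by arithmetic, since gfpt1.S itself had r = 0.57 with the score (fads1.S 0.95, fads2.S 0.84) and a gene at r of 0.9 with the score can then reach at most 0.87 with gfpt1.S. Their r in the controls had the same sign for 174 of the 385 (45.2%) and 221 of the 455 (48.6%), against 47.7% of the genes that did not track. Just inside the limit were tcp11l1.L (r = 0.9004, slope 0.85) and frmd4b.S (0.9008, 0.74) and just outside tlcd3b.L (0.89997, 2.24). On the lower side rflnb.L (-0.900002, -1.01) and ripk1.L (-0.9002, -1.59) fell inside and pmepa1.L (-0.89998, -1.21) and kctd15.L (-0.8990, -0.67) outside.

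**Figure D2:**
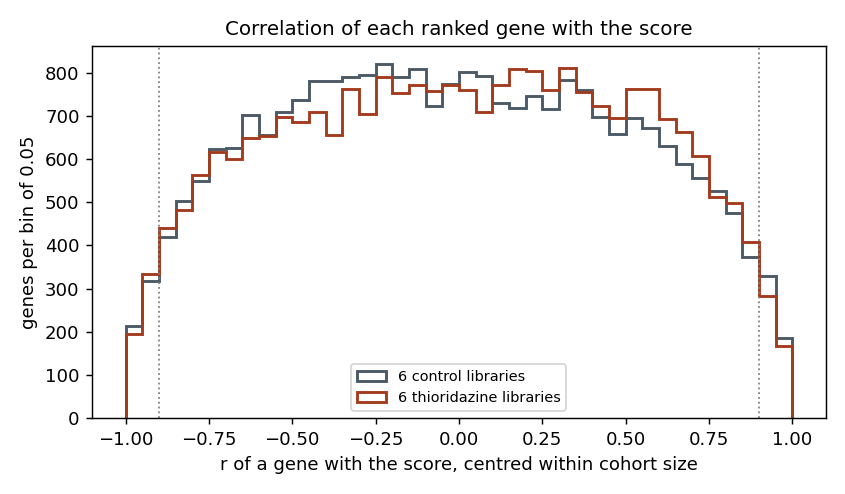
Number of genes, of 25550, in bins of r with the score for the 6 thioridazine libraries (red) and, with the controls' own score, for the 6 control libraries (grey). Dotted lines mark r of 0.9 in size, which 3.84% of genes passed in thioridazine and 4.09% in control libraries.

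The genes with the highest r were of many kinds. Among named genes above 3 log2 CPM, nln.L (neurolysin, a metallopeptidase of small peptides) had the steepest slope but one of the first 12, 1.27, and was at 8.97, 10.8 and 10.8 CPM in the small and 9.48, 8.17 and 12.3 CPM in the large cohorts. Small replicate 1 and large replicates 1 and 2 were below the controls (10.2 to 13.4 CPM) and the other 3 libraries among them. The steepest was atp5if1.S, the inhibitory factor of the mitochondrial ATP synthase, with a slope of 1.59 and 7.83, 11.1 and 10.5 CPM in the small and 8.35, 7.40 and 11.47 CPM in the large cohorts (controls 7.07 to 16.1 CPM). The DNA end-binding protein gene xrcc5.L (Ku80) went from 9.71 CPM in thioridazine large replicate 2 to 14.2 CPM in replicate 3, with controls at 10.1 to 17.8 CPM. The remaining ones had slopes of 0.60 to 0.96 and r of 0.98 to 0.99. They were cyb5r4.S (a cytochrome b5 reductase), bcar3.L (an adaptor of integrin signalling), brk1.S (a subunit of the WAVE actin-nucleating complex), lrrc9.L, adgra3.L (an adhesion receptor), cab39.S (a partner of the kinase LKB1), anxa6.L (annexin A6, a calcium-dependent membrane-binding protein), vezt.L (vezatin of adherens junctions) and pwwp2b.S. The placeholder LOC108712315, annotated as resembling pro-interleukin-16, had r = 1.00. Limma with 2 surrogate variables called 0 of these 13 genes against control (0 at an unadjusted p under 0.05). With no surrogate variable only LOC108712315 was called, lower by 0.34 (adjusted p = 0.0434), as by edgeR, and DESeq2 called 0.

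The genes with the lowest r were likewise a mixed set. The first by the rule, ulk4.L (a pseudokinase of cilia and neurons in mammals), was at 14.7, 12.1 and 11.96 CPM in the small and 13.9, 15.9 and 10.4 CPM in the large cohorts, with controls at 9.47 to 14.2 CPM. Thioridazine and control libraries overlapped. The steepest slope was that of get1.S, which inserts tail-anchored proteins into the endoplasmic reticulum, at -1.54 with 22.9, 16.5 and 17.5 CPM in the small and 21.4, 23.7 and 15.5 CPM in the large cohorts (controls 15.4 to 19.0 CPM). The lysosomal protease gene ctsa.L (cathepsin A) was at 91.3, 78.6 and 82.5 CPM in the small and 85.9, 92.2 and 74.7 CPM in the large cohorts, above or among the controls (64.2 to 75.9 CPM). The others had slopes between -0.55 and -1.37. These were flii.S (flightless, an actin remodeller), rilpl1.S, shkbp1.L, ppp1r13l.L (an inhibitor of p53), luc7l.L (a splicing factor), emx1l.L (an empty spiracles homeobox gene), jagn1.S (of the secretory pathway), taf6l.S, cox4i2.S (an isoform of a cytochrome c oxidase subunit) and the placeholder MGC81152, whose r was nearest to -1. With 2 surrogate variables limma called 0 of the 13 against control (1 at an unadjusted p under 0.05), and without any it called ctsa.L, higher by 0.26 (adjusted p = 0.0241), and cox4i2.S, lower by 0.36 (adjusted p = 0.0277). edgeR called the same 2 and DESeq2 ctsa.L alone.

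Next, the pathways of the score genes were followed through the same 6 libraries. The list of fatty acid synthesis and desaturation genes held 35 tested members, of which 12 rose with thioridazine and 0 fell (limma, 2 surrogate variables), against 0.2% of all genes called higher. Of the 35, 23 had r above 0 with the score and 2 tracked it, 1 in each direction, with a median r of 0.40 beside 0.01 over all genes. With no surrogate variable 16 were called higher and 1 lower (edgeR 16 and DESeq2 16 in all), against 3.89% and 5.14% of all genes. For this and the later lists, edgeR called 2490 and DESeq2 2027 of all 25550 genes, in either direction. fasn.L, fatty acid synthase, was at 277, 331 and 359 CPM in the small and 270.1, 268 and 302 CPM in the large cohorts, against 125 to 145 CPM in controls. It was above the controls in 6 of 6 libraries. The rise on the log2 scale was 1.37 ± 0.10 by limma with 2 surrogate variables (adjusted p = 3.79e-06). With none it was 1.16 (limma, adjusted p = 7.25e-08). Within each cohort size its highest library was replicate 3, and r was 0.80. acaca.L (acetyl-CoA carboxylase, which makes malonyl-CoA) rose by 1.14 ± 0.15 by limma with 2 surrogate variables (adjusted p = 0.00328), with r = 0.74. With none the rise was 0.86 (limma, adjusted p = 8.84e-05). Its differences from control were 0.76, 0.87 and 1.12 in the small and 0.90, 0.59 and 0.94 in the large cohorts. scd.L, the delta-9 desaturase, rose by 1.62 ± 0.16 (adjusted p = 9.22e-05) with levels of 41.1, 55.3 and 65.6 CPM in the small and 48.9, 53.5 and 58.7 CPM in the large cohorts and r = 0.65. The gene srebf1.S, which encodes an SREBP, rose by 1.31 ± 0.21 (adjusted p = 0.0118) with r = 0.66, and the lipase pnpla3.L by 1.03 ± 0.18 (adjusted p = 0.0177) with r = 0.91. The largest r in size on the list were negative: elovl1.L, a fatty acid elongase (r = -0.96, slope -0.31), and agpat2.S, an acyltransferase of phospholipid synthesis (r = -0.92). Neither was called against control with 2 surrogate variables.

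Other genes that rose in treated embryos had r of either sign with the score. acsbg2.S, an acyl-CoA synthetase named as the largest called rise above 3 log2 CPM, rose by 1.68 ± 0.15 (adjusted p = 4.75e-05) and was at 52.3, 59.5 and 50.9 CPM in the small and 42.8, 44.2 and 41.1 CPM in the large cohorts (controls 13.1 to 17.2 CPM), with r = -0.13. lipg.S, endothelial lipase, rose by 1.62 ± 0.26 (adjusted p = 0.0134), with r = 0.41. Among 55 genes of sterol synthesis, sensing and uptake, 6 rose and 0 fell, against 0.2% of all genes called higher, and 22 were called higher with no surrogate variable, against 3.89% (edgeR 23 and DESeq2 21 in all). Of the 55, 37 (67.3%) had r above 0, against 65.7% of the fatty acid list and 50.7% of all genes. Their median r was 0.24, beside 0.01 over all genes, and 3 tracked the score, 2 of them higher. srebf2.S, the SREBP that governs cholesterol synthesis, rose by 1.07 ± 0.10 (adjusted p = 5.19e-05) at 226, 224 and 272 CPM in the small and 201, 207 and 193 CPM in the large cohorts, against 102 to 114 CPM. It was highest in thioridazine small replicate 3, and r was -0.08. The low-density lipoprotein receptor gene ldlr.S rose by 0.99 ± 0.16 (adjusted p = 0.0134) and had r = -0.28, and insig1.S, the SREBP retention factor, rose by 1.61 ± 0.31 (adjusted p = 0.0406) with r = 0.51. Synthesis genes gave both signs. fdps.L, farnesyl diphosphate synthase, had r = 0.92 and 15.5, 17.5 and 17.8 CPM in the small and 13.5, 13.7 and 20.0 CPM in the large cohorts (controls 6.54 to 12.9 CPM), whereas dhcr7.S, 7-dehydrocholesterol reductase, had r = -0.95. Of genes in these 2 paragraphs, fasn.L, acaca.L, srebf1.S, pnpla3.L, srebf2.S, ldlr.S and insig1.S were chosen after their values were seen.

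The hexosamine and stress lists, to which gfpt1.S relates, had median r near 0, with signs that depended on the score gene. Of 35 genes of hexosamine and N-glycan precursor synthesis 4 rose and 0 fell, against 0.2% of all genes called higher, and 11 were called higher with no surrogate variable, against 3.89% (edgeR 11 and DESeq2 10 in all). Of these 35, 19 had r above 0, against 50.7% of all genes. Their median r was 0.02, with 0.27 for gfpt1.S alone and -0.10 for fads2.S alone, and -0.23 without thioridazine large replicate 3. gfpt2.L, the paralog of the score gene, was at 418, 485 and 355 CPM in the small and 299, 369 and 433 CPM in the large cohorts (controls 119 to 141 CPM) and rose by 1.52 ± 0.16 (adjusted p = 0.000299). It was highest in thioridazine small replicate 2 and thioridazine large replicate 3, the libraries with the highest score of their cohorts, and lowest in small replicate 3 and large replicate 1, which gave r = 0.42. gale.S, which interconverts UDP sugars, rose by 1.17 ± 0.15 (adjusted p = 0.00182) with r = 0.56. Of 41 genes of the ATF4 and CHOP stress response 3 rose and 0 fell, against 0.2% of all genes called higher. With no surrogate variable 23 were called higher, against 3.89% of all genes (edgeR 24 and DESeq2 25 in all). Of the 41, 21 had r above 0. Their median r was 0.09, with 0.40 for gfpt1.S alone and -0.24 for fads2.S alone, and it turned to -0.06 without thioridazine large replicate 1 and -0.12 without large replicate 3. ddit3.L, which encodes the stress factor CHOP, was at 21.01, 18.4 and 17.1 CPM in the small and 6.09, 11.8 and 9.38 CPM in the large cohorts against 1.67 to 3.15 CPM, a rise of 1.95 ± 0.30 (adjusted p = 0.00814) with r = -0.25. Every small-cohort library was above every large-cohort library for ddit3.L, and thioridazine large replicate 2, with the lowest score, was the highest of its cohort. The small controls were higher too, at a mean of 2.75 CPM against 1.98 CPM in the large controls. The interaction of thioridazine and cohort size was not called for ddit3.L (-0.56 ± 0.35, limma with 2 surrogate variables, adjusted p = 0.750). chac1.L, a glutathione-degrading CHOP target, rose by 1.06 ± 0.17 (adjusted p = 0.0134), with r = -0.43. The serine synthesis gene psph.L had r = 0.98 at 66.6, 82.9 and 80.8 CPM in the small and 60.9, 50.1 and 73.2 CPM in the large cohorts and was not called (limma, adjusted p = 0.226). nupr1.L, a stress-induced chromatin protein, rose by 1.47 ± 0.26 (adjusted p = 0.0300), with r = 0.56. gale.S, ddit3.L and chac1.L were chosen after their values were seen.

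The strongest lean of any of 40 lists was in the eye. Of 57 photoreceptor and phototransduction genes, 51 (89.5%) had r above 0 with the score, against 50.7% of all genes, although only 1 tracked it. The median slope was 1.38, against 0.01 over all genes, and the median r was 0.54 in thioridazine and -0.39 in control libraries. The median difference from control, on the log2 scale, was -1.19, -0.69 and -0.36 in thioridazine small replicates 1, 2 and 3 and -0.55, -1.23 and -0.74 in thioridazine large replicates 1, 2 and 3, beside medians of 0.00 to 0.01 over all genes. The members were thus lowest in the library with the lowest score of each cohort size and did not follow the score between the other 2. gnat1.L, the alpha subunit of rod transducin, was at 6.11, 18.3 and 20.6 CPM in the small and 21.5, 8.17 and 17.5 CPM in the large cohorts, all below the controls at 27.2 to 51.9 CPM. rho.L, rhodopsin, was at 5.75, 13.5 and 15.1 CPM in the small and 26.6, 5.85 and 20.5 CPM in the large cohorts against 52.4 to 139 CPM, again with no overlap. Thioridazine small replicate 1 and large replicate 2 stood apart with about the same level, 5.75 and 5.85 CPM. rho.S (2.48, 12.9 and 13.3 CPM in the small and 27.6, 8.49 and 16.4 CPM in the large cohorts), rbp3.L (the interphotoreceptor retinoid-binding protein, 2.67, 8.15 and 9.70 CPM in the small and 11.3, 5.395 and 11.6 CPM in the large cohorts) and the short-wave cone opsin opn1sw.L (7.45, 13.4 and 15.5 CPM in the small and 15.9, 8.17 and 13.7 CPM in the large cohorts) had their lowest values in the same pair of libraries. Limma with 2 surrogate variables called 0 of the 57 (4 at an unadjusted p under 0.05, which 1803 of all 25550 genes reached). With no surrogate variable limma called 38, all lower, against 5.14% of all genes called lower, and edgeR and DESeq2 also called 38. In RNA of whole embryos fewer cells of a type and less RNA per cell cannot be told apart. gnat1.L, rho.S, rbp3.L and opn1sw.L were chosen after their values were seen.

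Lens and neuronal genes leaned the same way less widely. Of 15 lens genes 11 had r above 0. Their median r of 0.40 became -0.22 without thioridazine large replicate 2, and their median slope was -0.10 in the small and 0.51 in the large cohorts. crybb1.L (beta crystallin B1) was at 10.95, 16.1 and 11.96 CPM in the small and 17.9, 11.6 and 21.2 CPM in the large cohorts, all below the controls at 27.7 to 43.2 CPM, with r = 0.85. With 2 surrogate variables limma called 0 of the 15 (7 at an unadjusted p under 0.05), and with none it called 10 lower and 1 higher (edgeR 11 and DESeq2 10 in all). Among 88 genes of neuronal cytoskeleton and synaptic vesicles 56 (63.6%) had r above 0, and 3 tracked the score higher and 2 lower. Their median r of 0.29 became -0.33 with gfpt1.S alone as the score and 0.07 without thioridazine small replicate 1. This lean was not particular to neurons, since nuclear-encoded respiratory chain subunits had 72.0% with r above 0 and a median r of 0.32. Closest among the neuronal genes were dpysl5.L (r = 0.98) and ina.S, a neuronal intermediate filament (r = 0.95). ina.S was at 10.7, 13.4 and 14.9 CPM in the small and 13.2, 11.9 and 16.7 CPM in the large cohorts, below the controls at 19.1 to 24.9 CPM in every library. Limma called 0 of the 88 with 2 surrogate variables (25 at an unadjusted p under 0.05), and 48 lower and 1 higher with none (edgeR 49 and DESeq2 47 in all). Over all 25550 genes 1803 had an unadjusted p under 0.05 with 2 surrogate variables. With none, 5.14% of all genes were called lower and 3.89% higher.

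Skeletal and matrix genes were higher in libraries with a higher score. Of 53 cartilage and skeleton genes 42 (79.2%) had r above 0, with a median slope of 0.80, and of 99 collagen and matrix genes 79 (79.8%), with a median slope of 0.43. The median difference from control of the cartilage list was -0.18, 0.15 and -0.06 in thioridazine small replicates 1, 2 and 3 and -0.09, -0.31 and 0.02 in thioridazine large replicates 1, 2 and 3. For the matrix list it was -0.25, 0.00 and -0.20 in thioridazine small replicates 1, 2 and 3 and -0.14, -0.30 and -0.11 in thioridazine large replicates 1, 2 and 3. Both were lowest where the score was lowest in each cohort. epyc.L, a small proteoglycan of cartilage, was at 22.1, 38.8 and 27.8 CPM in the small and 29.9, 14.5 and 34.1 CPM in the large cohorts (controls 26.5 to 42.1 CPM). cnmd.L, chondromodulin, was at 32.4, 40.4 and 31.1 CPM in the small and 27.5, 14.5 and 35.7 CPM in the large cohorts (controls 23.7 to 37.4 CPM), and ucma.L, a cartilage matrix protein, tracked the score (r = 0.97). Most thioridazine libraries lay within the control range for these genes, while large replicate 2 lay below it for epyc.L and cnmd.L, as did small replicate 1 for epyc.L. The abundant col2a1.L, type II collagen, was at 798, 976 and 736 CPM in the small and 761, 514 and 822 CPM in the large cohorts, against 736 to 973 CPM. alpl.L, alkaline phosphatase, ran the other way at 70.6, 29.5 and 44.8 CPM in the small and 50.8, 70.6 and 36.5 CPM in the large cohorts against 26.0 to 41.9 CPM, with r = -0.88. Limma with 2 surrogate variables called 0 of 53 and 0 of 99 (5 and 11 at an unadjusted p under 0.05). With none it called 3 higher and 3 lower among cartilage genes (edgeR 5 and DESeq2 5 in all) and 2 higher and 29 lower among matrix genes (edgeR 29 and DESeq2 29 in all). The shares over all genes with none were 3.89% higher and 5.14% lower, and 1803 of 25550 had an unadjusted p under 0.05 with 2 surrogate variables. Muscle genes also had mostly positive r, 66 of 78, but their median slope was -0.21 within the small and 0.59 within the large cohorts, and their median r of 0.34 became -0.04 without thioridazine large replicate 2. epyc.L, cnmd.L and col2a1.L were chosen after their values were seen.

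Immediate early genes, which are transcribed within minutes of a stimulus, had mostly negative r with the score. Of 48 only 6 (12.5%) had r above 0, the median slope was -0.82, and the median r was -0.45 against 0.38 in the controls. The median difference from control was 0.71, 0.38 and 0.38 in thioridazine small replicates 1, 2 and 3 and 0.17, 0.56 and 0.30 in thioridazine large replicates 1, 2 and 3. The members were thus highest in the library with the lowest score of each cohort size. Small replicates 2 and 3 were alike, and large replicate 3 was above large replicate 1 although its score was higher. junb.S, a subunit of the AP-1 transcription factor, was at 99.5, 38.0 and 44.9 CPM in the small and 18.4, 64.1 and 29.0 CPM in the large cohorts, with all 6 libraries above the controls at 10.9 to 13.5 CPM. cebpb.L was at 52.7, 17.0 and 23.9 CPM in the small and 12.2, 37.9 and 13.6 CPM in the large cohorts (controls 6.68 to 9.72 CPM) and zfp36.S, which promotes decay of messenger RNAs, at 96.2, 41.4 and 49.3 CPM in the small and 29.7, 71.5 and 36.5 CPM in the large cohorts (controls 18.5 to 27.5 CPM). In each of these genes thioridazine small replicate 1 and large replicate 2 were the highest of their cohorts. fosl2.L, another AP-1 subunit, was at 123, 70.0 and 53.1 CPM in the small and 35.8, 78.5 and 49.1 CPM in the large cohorts (controls 18.0 to 28.2 CPM). The zinc finger gene egr1.S, at 23.2, 8.69 and 8.73 CPM in the small and 5.09, 10.9 and 4.87 CPM in the large cohorts, overlapped the controls (4.29 to 10.4 CPM) except in thioridazine small replicate 1 and large replicate 2. Limma with 2 surrogate variables called 0 of 48 (10 at an unadjusted p under 0.05, which 1803 of all 25550 genes reached). With none it called 22 higher and 1 lower (edgeR 25 and DESeq2 26 in all), against 3.89% and 5.14% of all genes. All 5 named genes of this list in the paragraph were chosen after their values were seen. By the rule, btg1.L (r = -0.95) and dusp6.S (r = -0.88) had the largest r.

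Ribosome biogenesis factors leaned the same way with smaller differences. Of 73, 14 (19.2%) had r above 0 and the median slope was -0.32. Their median difference from control was 0.31, 0.11 and 0.12 in thioridazine small replicates 1, 2 and 3 and 0.04, 0.18 and 0.11 in thioridazine large replicates 1, 2 and 3. Here too large replicate 3 was above large replicate 1 although its score was higher. npm1.L, nucleophosmin, was at 578, 503 and 507 CPM in the small and 481, 538 and 462 CPM in the large cohorts (controls 447 to 479.7 CPM), and ddx18.S, a helicase of the large subunit, at 55.5, 43.5 and 43.6 CPM in the small and 46.6, 50.2 and 40.4 CPM in the large cohorts (controls 34.5 to 41.5 CPM), each highest in small replicate 1 and, within the large cohorts, in replicate 2. Limma called 0 of 73 with 2 surrogate variables (5 at an unadjusted p under 0.05, which 1803 of all 25550 genes reached). With none it called 12 higher, against 3.89% of all genes (edgeR 11 and DESeq2 8 in all). npm1.L was chosen after its values were seen. The other lists, which cover blood, gut, skin, cilia, cell division and proteostasis among others, had between 35.5% and 72.0% of members with r above 0, and none had more than 5 members tracking the score.

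**Figure D3:**
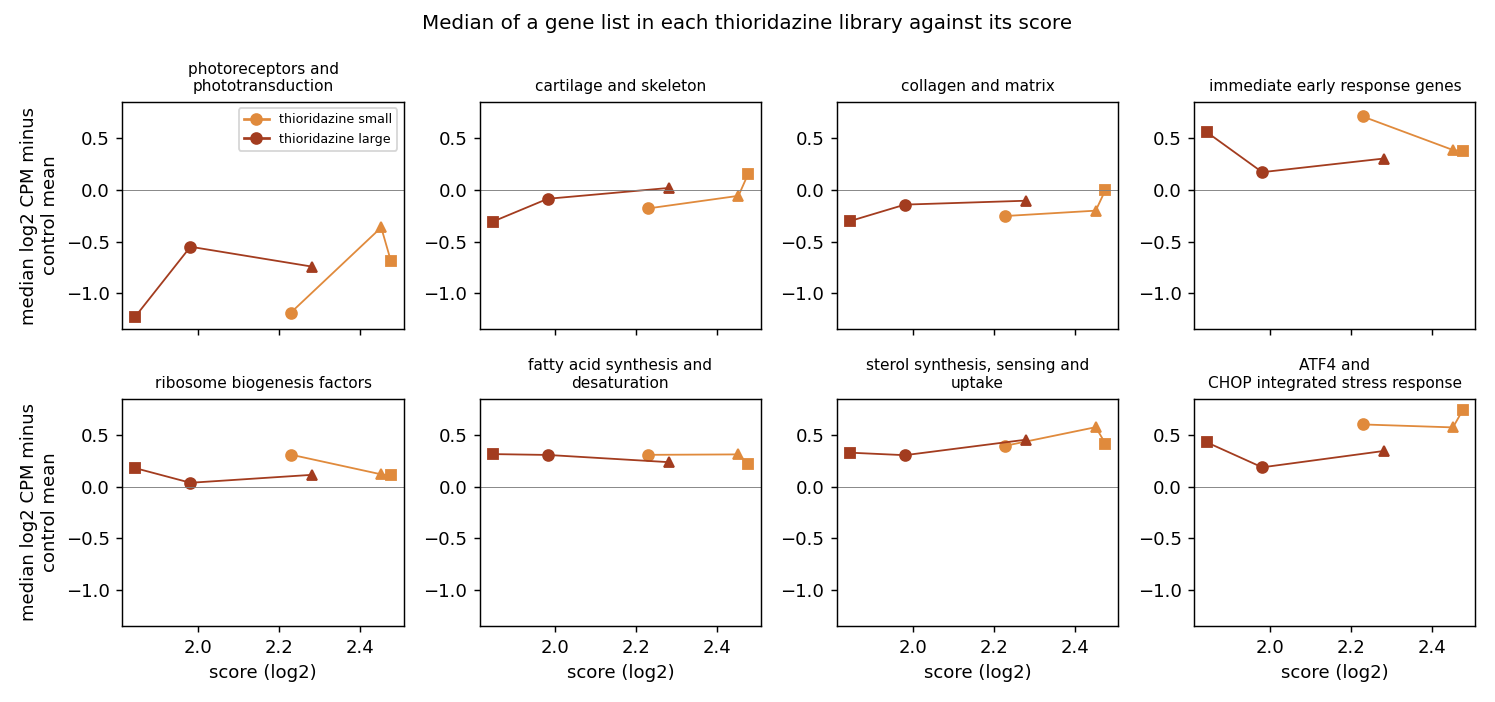
Median over a list's genes of log2 CPM minus the mean of the same-size controls, against the score, in the 3 thioridazine small (orange) and 3 thioridazine large (red) libraries. Photoreceptor genes are lowest (-1.19 and -1.23) and immediate early genes highest (0.71 and 0.56) in the library with the lowest score of each cohort size, and fatty acid genes stay at 0.22 to 0.31.

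**Figure D4:**
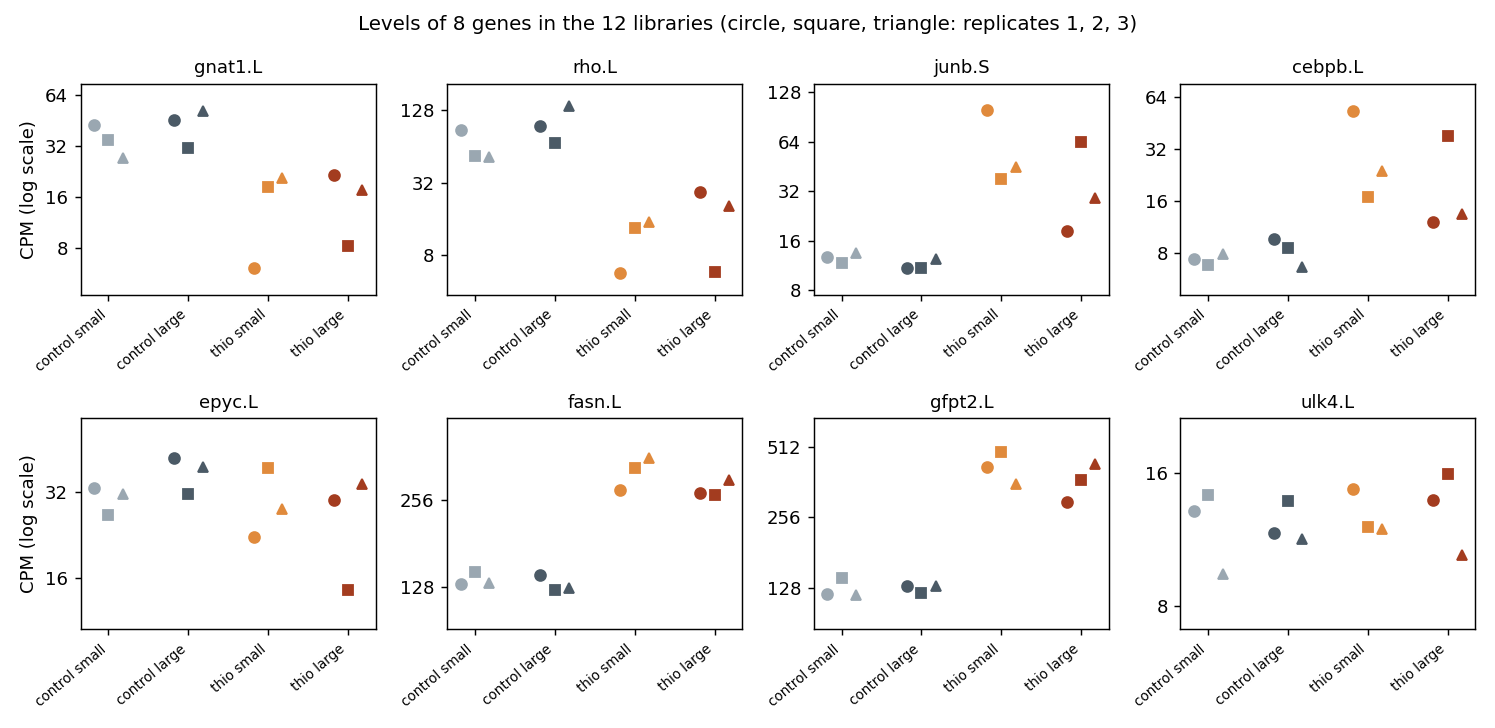
CPM of 8 genes in the 12 libraries on log2 axes, by group (n = 3 each). Rod genes gnat1.L and rho.L are lowest, and junb.S and cebpb.L highest, in thioridazine small replicate 1 and large replicate 2, whereas fasn.L and gfpt2.L lie above every control in all 6 libraries.

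Because the score was centred within cohort size, the small and large cohorts give separate slopes for each gene, each over 3 libraries. Across 25550 genes the correlation of the slopes was 0.096, a description over genes that are not independent, and 53.5% had the same sign in both. Of 6722 genes with r of at least 0.9 in size and a slope of at least 0.5 in the small cohorts, 56.4% had the same sign in the large cohorts, and of 4812 so chosen in the large cohorts 54.7% did in the small. Photoreceptor genes had a median slope of 3.34 in the small and 0.82 in the large cohorts, and immediate early genes -1.96 and -0.42. For cartilage genes the values were 0.67 and 0.72. Left out in turn, the 6 libraries moved the median r of photoreceptor genes between 0.37 and 0.81, and that of immediate early genes between -0.91 and -0.29. With gfpt1.S alone as the score these medians were -0.15 and 0.16, which turned both signs. The medians of ribosome biogenesis, neuronal and fatty acid genes turned as well, to 0.10, -0.33 and -0.04, while those of cartilage, matrix, lens and muscle genes were 0.40, 0.46, 0.19 and 0.42.

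The name of a graded response was then checked against how far each library differed from its controls over all genes, a comparison added after the data were seen. Over 16811 genes of at least 3 log2 CPM the root mean square (RMS) difference from the control mean was 0.412, 0.332 and 0.281 in thioridazine small replicates 1, 2 and 3 and 0.292, 0.398 and 0.334 in thioridazine large replicates 1, 2 and 3. Controls lay at 0.143 to 0.165 from their own mean. In each cohort size the library with the lowest score was therefore the one farthest from the controls. Between the other 2 libraries of each cohort size, the RMS difference was larger at the higher score. A second measure projected a library's differences on the mean difference found in the other cohort size, without the score genes (139 genes for small and 162 for large cohorts). These genes were chosen for a difference above 1 in size in that other cohort. A value of 1 means as large a difference along that direction, but the choice of genes pulls values below 1. That mean includes every library of the other cohort, so small replicate 1 and large replicate 2 enter each other's value. The projection gave 0.71, 0.41 and 0.57 for the small and 0.43, 1.07 and 0.67 for the large cohorts. Its r with the score, centred within cohort size, was -0.54 (Spearman's rho -0.60) over 6 libraries. Without thioridazine large replicate 2 it was -0.02, so the value rests on that library. The first principal component of the centred libraries held 32.5% of their variance, against 29.9% in controls, and placed small replicate 1 and large replicate 2 at -39.6 and -39.0 and the other 4 at 13.3 to 26.4. These values go against the name of response strength: the score orders the libraries by 3 metabolic genes, and that order was not the order of their difference from the controls as a whole. For the RMS difference this rests on small replicate 1 and large replicate 2.

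**Figure D5:**
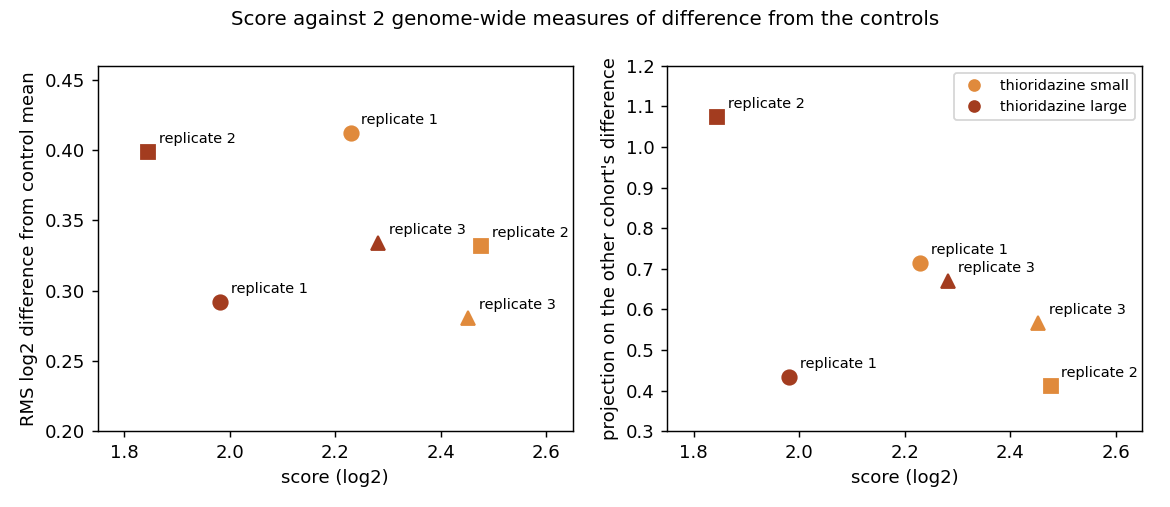
Root mean square log2 difference from the control mean over 16811 genes (left) and projection on the difference in the other cohort size (right), against the score, for 6 thioridazine libraries. Small replicate 1 and large replicate 2 have the lowest scores of their cohorts (2.23 and 1.84) and the largest values on both axes (0.412 and 0.398, 0.71 and 1.07).

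The treatment effect itself, averaged over both cohort sizes, was called for 51 higher (0.2%) and 10 lower genes (0.0391%, or 0.239% together of those ranked) by limma with 2 surrogate variables, and for 993 higher (3.89%) and 1314 lower (5.14%, or 9.03% together) with none. Without thioridazine small replicate 1, small replicate 3, large replicate 1 or large replicate 2 the first counts became 467 and 532, 1511 and 1674, 1414 and 1487, and 923 and 967. Without control small replicate 1, control large replicate 2 or control large replicate 3, 20, 30 and 12 genes were called higher. The interaction with cohort size was called for 19 genes (0.0744%) with 2 surrogate variables and 5 (0.0196%) with none. The first surrogate variable had 68.0% of its variance between treatments. Within the thioridazine libraries, its centred values had r = -0.71 with the score and 0.88 with the projection (descriptions over 6 libraries). Genes graded across the libraries changed call between these fits. gnat1.L differed from control by 0.01 ± 0.28 with 2 surrogate variables (adjusted p = 0.998) and by -1.42 with none (adjusted p = 0.00329). The values for zfp36.S were -0.11 ± 0.17 (adjusted p = 0.947) and 1.08 (adjusted p = 0.0110). The genes tracking the score were set beside these shares. Of the 385 higher with it, 2 were called in either direction with 2 surrogate variables (0.519%, against 0.239% of the genes that did not track). These were 2 higher and 0 lower. With none 41 were called in either direction (10.6%, against 9.05%). Of the 41, 5 were higher and 36 lower than control. Of the 455 lower with it, limma called 0 with 2 surrogate variables (41 at an unadjusted p under 0.05) and 29 with none (6.37%, edgeR 33 and DESeq2 26). Of the 29, 24 were higher and 5 lower than control. Over all 25550 genes 1803 had an unadjusted p under 0.05 with 2 surrogate variables, and edgeR called 2490 and DESeq2 2027. With 2 surrogate variables 10 genes fell in the effect averaged over both cohort sizes, against 1314 with none. Of the 10, the named ones above 3 log2 CPM were astl3a.1.L and xepsin.S (proteases of skin and hatching gland), xa-1.L (an anterior ectoderm gene) and rpl27a.S (a ribosomal protein). None of these 4 tracked the score, with r between -0.12 and 0.60. The fall of astl3a.1.L lay in the large cohorts, at 0 to 0.174 CPM against 49.9 to 61.3 CPM in controls. In the small cohorts it was at 33.8 to 93.8 CPM and overlapped the controls (51.1 to 72.4 CPM).

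Lastly, 7 measures of library quality and composition, which the score does not use, were compared with it by exact permutation of the libraries within cohort size (36 arrangements, two-sided, smallest possible p = 0.0278). None passed, with adjusted p of 0.944 for each r and each rho. After adjustment over the 7 measures, a single measure at that smallest p could not have passed either. The test therefore cannot show that these measures are unrelated to the score. Total counts (5356407 to 7497662 in thioridazine libraries) had r = 0.02 (exact permutation p = 0.944, rho = -0.09). Ribosomal RNA genes took 0.0650% to 0.215% of counts, a share that had r = -0.50 (exact permutation p = 0.583, rho = -0.54), and was highest in thioridazine large replicate 2. With large replicates 1 and 2, whose scores were farthest from the median, left out, these r became 0.72 and 0.99, which rest on the 3 small libraries, since the 1 remaining large library is 0 after centring. Mitochondrially encoded genes were not used. The part of RNA quality, clutch or timing of development in the order of the libraries was not tested.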

How the data were processed

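RNA of whole embryos was sequenced by the authors as stranded, ribosome-depleted, single-end libraries. Bowtie2, STAR and RSEM are named per the labels, with neither versions nor the build of the counts given in the sources read. Expected counts from RSEM were deposited by the authors for 42638 genes (32.6% of values not whole). A deposited log2 CPM table of 26050 genes was recovered from those counts to within 4.97e-14 and served as an alternative. No columns of the authors' own comparisons were used.

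A gene needed more than 1.8 CPM in 3 or more libraries. Scaling used TMM factors from edgeR 4.0.16, and values were turned into log2 CPM with a prior count of 0.5. Thioridazine was compared with control, averaged over cohort sizes, and the interaction was tested, over all 12 libraries with voom and limma 3.58.1 (R 4.3.3) with 2 surrogate variables (sva 3.50.0), the study's number. Log2 changes printed with ± and an adjusted p are estimates and standard errors of that fit. They can differ from the plain difference between libraries and controls. All p-values are two-sided and adjusted by Benjamini-Hochberg over the genes tested. A batch that the study names is absent from the labels and was not modelled. For DESeq2 1.42.0 and the quasi-likelihood test of edgeR, counts were rounded and no surrogate variable entered. Depth allows a listed 0 to hide up to 3 counts, or 0.400 to 0.614 CPM, for counting error only.

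Correlations with the score are descriptions, since the score chose the order. The score genes, the members and the 40 gene lists (15 to 131 tested genes, matched by symbol) were chosen with earlier results of these data known. Named genes were the score genes and homeologs, the 12 highest and 12 lowest r (symbol, at least 3 log2 CPM, slope at least 0.5 in size) with placeholders among the 2 highest or lowest, the 2 largest r of each list, and the 5 largest called changes in each direction. Others are said to be chosen after their values were seen. Fits and correlations were tested on simulated data. Alternatives were other scalings, filters, scores and fits, and each library left out in turn. RefSeq records (Xenopus_laevis_v10.1) served for names only.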

Additional observations from a re-analysis of the deposited data

Results flagged for a closer look

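The treatment difference of 3 named genes differed between cohort sizes by the interaction test of limma with 2 surrogate variables. For astl3a.1.L, a hatching protease of the astacin family, the interaction was -8.62 on the log2 scale, with 70.8, 93.8 and 33.8 CPM in the thioridazine small and 0, 0 and 0.174 CPM in the thioridazine large libraries, so its size depends on the prior count and is no bound. Controls of astl3a.1.L were at 51.1 to 72.4 CPM in the small and 49.9 to 61.3 CPM in the large cohorts. For xepsin.S, an epidermal serine protease, the interaction was -5.57, with 24.4, 32.5 and 19.1 CPM against 0.283, 0.462 and 0.347 CPM. For xa-1.L it was -1.001, with 85.1, 80.0 and 83.0 CPM against 56.8, 47.7 and 54.4 CPM. Their adjusted p from limma were 0.0154 for astl3a.1.L, 0.0108 for xepsin.S and 0.00260 for xa-1.L, and 0.154, 0.0645 and 0.00500 with no surrogate variable, where only xa-1.L stayed past the threshold. These differences lie between the cohort sizes and are removed by centring, and none of the 3 genes tracked the score within them.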

How the results depend on the processing

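Scaling (RLE), the prior count, rank correlation and the deposited log2 table moved the counts of tracking genes by less than 1.5 times. With no filter beyond 1 count 690 genes were lower with the score, and with no centring 113 were higher and 87 lower, where cyb5r4.S had r = -0.015 and lrrc9.L r = -0.12. Leaving out 1 thioridazine library gave 879 to 1541 higher and 916 to 1615 lower, since fewer libraries pass r of 0.9 more easily. The score range was 1.11 from fads2.S alone and 0.495 to 0.631 with a library left out. The r of the projection with the score was -0.97 to -0.02 with a library left out. Treatment calls, higher and lower, were 993 and 1314 with no surrogate variable, 24 and 2 with 1, 1148 and 1342 by edgeR, 953 and 1074 by DESeq2, and 125 and 65 with no filter beyond 1 count. A filter of 5 CPM gave 13 higher. Leaving out a library gave 12 to 1511 higher and 4 to 1674 lower. The interaction with no surrogate variable was called for 5 genes. With no surrogate variable, by edgeR and by DESeq2, gnat1.L was at -1.42, -1.32 and -1.33 and zfp36.S at 1.08, 1.18 and 1.19. With a library left out gnat1.L ranged from -1.54 to 0.38 and zfp36.S from -0.24 to 1.404. The causes were not tested. Same-numbered replicates gave no sign of pairing, with correlations of their deviations between -0.205 and 0.109. With so few libraries in a group, this cannot show whether they shared a clutch or week. A replicate block with no surrogate variable gave 965 higher and 1230 lower calls, gnat1.L at -1.39 and zfp36.S at 1.09. Other named genes lost a treatment call under 69 combinations of gene and setting, with their direction kept. Depth limits genes near 0.400 to 0.614 CPM, the value of 3 counts.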
